A study of Drosophila melanogaster with 2 samples.

Results

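The 768 regions described here were the binding regions of the danr protein that lay at promoters reading in 1 direction only. They were 29.2% (exact 95% Clopper-Pearson interval 27.4 to 31.0%) of 2632 regions called on the 7 chromosomes of Drosophila melanogaster. A region was a set of called peaks overlapping by at least 1 bp, and it was placed by its summit, the point of highest enrichment. A member had its summit within 500 bp of annotated transcript starts on 1 strand and no start on the opposite strand within that distance. Another 456 regions had starts on both strands in reach, and 1408 had no start within 500 bp and are called distal.

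Binding was measured by chromatin immunoprecipitation and sequencing in whole embryos collected 0 to 24 h after egg laying. Both biological replicates came from the same transgenic strain, danr-GFP, whose flies express danr fused to enhanced GFP, and the fusion was pulled down with an antibody to GFP. There was 1 group of 2 replicates with no other genotype, treatment or stage, and the control libraries that the labels point to were not analysed here. Neither the promoter driving the transgene nor the level of the fusion is stated in the labels, and whole embryos mix all cell types and the full range of embryonic ages collected.

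danr is short for distal antenna-related. Its product binds DNA through a domain of the pipsqueak family and, with its relative dan, is known for roles in antennal and eye identity. A promoter is the stretch around a transcript start where the transcription machinery assembles. In flies, many regulated promoters carry a TATA box just upstream of the start or an initiator at it, while many housekeeping promoters carry other elements such as the DRE, the site of the factor DREF. GAGA factor, encoded by Trl, binds GA repeats upstream of many starts and is known to help keep promoter DNA free of nucleosomes.

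The sequences below show 4 features that the results return to. All are from the RefSeq assembly of the dm6 genome, are given on the strand of the gene from 5′ to 3′, and end upstream of the start. Capitals mark the motif, on whichever strand it reads. The first set is the stretch around the summit, 50 bases on either side, of the 4 strongest members outside annotated exons that hold the TATA-box core TATAAA there, with regions of 1 chromosome arm left unshown.
CG18549 (chr3R:12449117-12449217, + strand): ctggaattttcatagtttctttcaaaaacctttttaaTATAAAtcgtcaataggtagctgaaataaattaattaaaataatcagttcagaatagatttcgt
CG31145 (chr3R:23669808-23669908, - strand): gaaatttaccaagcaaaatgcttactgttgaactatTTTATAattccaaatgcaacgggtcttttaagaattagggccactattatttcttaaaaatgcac
Rtnl1 (chr2L:4997609-4997709, - strand): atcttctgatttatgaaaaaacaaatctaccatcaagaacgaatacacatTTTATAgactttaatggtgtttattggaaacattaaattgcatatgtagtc
CG13921 (chr3L:1746737-1746837, + strand): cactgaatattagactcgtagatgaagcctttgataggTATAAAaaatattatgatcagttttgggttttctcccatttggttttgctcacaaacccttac
In CG31145 and Rtnl1 the core reads on the antisense strand. By contrast, Hsp27 and MFS18 carry the core on the sense strand at the usual place of a TATA box, and their summits lie farther upstream than the last 50 bases shown.
Hsp27 (chr3L:9384013-9384062, + strand): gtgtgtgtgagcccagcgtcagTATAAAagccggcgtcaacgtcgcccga
MFS18 (chr2L:4448636-4448685, - strand): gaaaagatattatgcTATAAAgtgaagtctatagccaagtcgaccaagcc
The 250 bases before the start of msi and Gapdh2 show the GA repeats that lay between summit and start.
msi (chr3R:25515868-25516117, + strand): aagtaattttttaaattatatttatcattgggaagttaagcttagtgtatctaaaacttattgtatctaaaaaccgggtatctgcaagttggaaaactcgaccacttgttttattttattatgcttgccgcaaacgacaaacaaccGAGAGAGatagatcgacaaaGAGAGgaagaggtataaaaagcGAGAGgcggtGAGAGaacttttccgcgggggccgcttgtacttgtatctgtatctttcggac
Gapdh2 (chrX:15867895-15868144, + strand): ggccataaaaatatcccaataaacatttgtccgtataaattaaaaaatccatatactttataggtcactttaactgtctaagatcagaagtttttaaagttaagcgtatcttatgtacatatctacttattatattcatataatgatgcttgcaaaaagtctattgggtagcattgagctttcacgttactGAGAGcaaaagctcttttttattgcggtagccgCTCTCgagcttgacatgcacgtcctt
The DRE was uncommon at these summits, and the bases around the summit of eEF1gamma, which encodes a translation elongation factor subunit, hold one.
eEF1gamma (chr3R:29220084-29220171, + strand): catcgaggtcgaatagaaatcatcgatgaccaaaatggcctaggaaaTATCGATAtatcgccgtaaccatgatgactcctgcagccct

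Members varied widely in enrichment. The signal, the authors' enrichment value per peak in the list pooled over both replicates, ran from 35.1 to 1356 with a median of 88.7 and quartiles of 65.2 and 156. Neither its scaling nor the read depth behind it is stated in the labels or files, so differences are read only against the spread between replicates. The depth of each library is therefore unknown, and the intervals given for shares cover counting of regions or starts only. With 1 group there is no comparison over samples to test, and no p-value is given.

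The strongest member lay at Ugalt, which encodes a transporter of UDP-galactose into the Golgi. Its signal was 1356 pooled, 701 in replicate 1 and 648 in replicate 2, with the summit 30 bp upstream of the start (at -30 bp). CG14100 followed with 1152 pooled, 527 in replicate 1 and 626 in replicate 2, at -96 bp. The replicates stood close together at both genes, and neither replicate was the higher at both. mRpL41, a protein of the mitochondrial ribosome, had 984 pooled, 457 in replicate 1 and 514 in replicate 2. PNPase, the mitochondrial RNA-degrading polynucleotide phosphorylase, had 831 pooled, 452 and 376 in replicates 1 and 2, and its summit lay inside the 5′ UTR at 82 bp. px, known for its role in wing vein patterning, had 710 pooled, with 370 and 344 in the replicates. The 5 genes named so far all differed by far less between replicates than from the median member.

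Among the other members of the strongest 10, the replicates stood farther apart at CG18549 and GstE13. The region at CG18549, shown above, gave 695 pooled, 421 in replicate 1 and 273 in replicate 2. At GstE13, which encodes a glutathione transferase, the order was the opposite, with 570 pooled, 211 in replicate 1 and 363 in replicate 2. The remaining members of the 10 were the long noncoding RNA gene lncRNA:CR44619 (677 pooled, at -437 bp), Fkbp14, an endoplasmic reticulum prolyl isomerase (588), and ph-p, a Polycomb group gene. ph-p carried a pair of members, with signals of 937 at -479 bp (443 and 502 in replicates 1 and 2) and 543 at 472 bp (331 and 215). These distances are from different starts of ph-p, and both summits lie between those starts.

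The summits lay on the upstream side of their starts. Of the 768 members, 628 (81.8%, interval 78.9 to 84.4%) had the summit upstream, although only 45.5% of the genomic positions that satisfy the same promoter rule are upstream. The median signed distance, negative upstream, was -161 bp, with quartiles of -269.5 and -63 bp. The most filled 50-bp steps were the one from -200 to -150 bp, with 121 members, and the one from -150 to -100 bp, with 112. In the replicates' own lists the share upstream was 82.5% of 531 regions in replicate 1 and 85.1% of 450 in replicate 2, with medians of -176 and -177 bp. Restricting the members to the 655 with no opposite start within 1000 bp gave 535 upstream summits (81.7%).

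**Figure D1:**
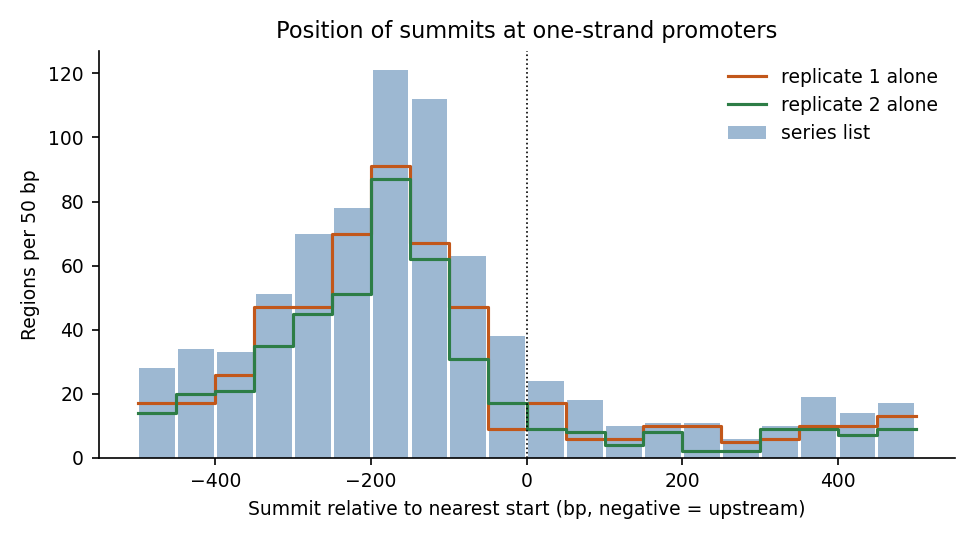
The number of regions per 50 bp (vertical axis) by the distance of the summit from the nearest start in bp (horizontal axis, negative upstream). Bars are the 768 members and lines are the lists of replicate 1 alone (531 regions) and replicate 2 alone (450 regions); all 3 are highest between -200 and -150 bp.

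Distance went together with strength and with calling in both replicates, which are linked measures from the same libraries. The 412 members with summits 1 to 250 bp upstream had a median signal of 94.3, and 47.1% of them were called in the thresholded lists of both replicates. The 74 members with summits from the start to 250 bp downstream had a median of 72.7, and 29.7% were in both lists. The 216 members more than 250 bp upstream (median 88.3) and the 66 members more than 250 bp downstream (median 88.2) lay between them. The class 1 to 250 bp upstream was mixed. Its 50-bp steps from -250 to -100 bp had medians of 98.8 to 109, with 46.4 to 59.0% in both lists. From -100 to -50 bp and from -50 to 0 bp the medians were 76.1 and 73.1, with 23.8 and 28.9% in both lists. Downstream, the medians of the steps ran from 65.7 (0 to 50 bp) to 103 (350 to 400 bp). Alternative starts within a gene behaved like outermost ones: 231 of 283 summits at internal starts (81.6%) and 397 of 485 at outermost starts (81.9%) were upstream, with median signals of 93.9 and 87.7.

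The summit itself fell in intergenic DNA for 326 members, in introns for 305 and in a 5′ UTR for 84. Another 32 were in other exons, 13 in a 3′ UTR and 8 in coding sequence. The nearest start belonged to a protein-coding gene for 696 members, to a noncoding RNA gene for 67, to a tRNA gene for 3 and to a snoRNA gene for 2. The 768 regions pointed to 733 distinct genes, of which 705 had 1 member, 22 had 2, 5 had 3 and 1 had 4. The gene with 4 was Rtnl1, which encodes a reticulon that shapes the endoplasmic reticulum, and its signals ranged from 63.4 to 450. dnc, the cAMP phosphodiesterase gene dunce, had 3 members between 76.5 and 274, and Moe, whose product moesin links actin to the membrane, had 3 between 50.4 and 124.

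Promoters were dense in binding for their size. Positions that meet the one-direction rule make up 11.7% of the assembled genome (16.0 Mb) and held 47.9 regions per Mb, against 11.9 per Mb where no start is in reach. Positions with starts on both strands held 207 regions per Mb, more again than the one-direction promoters. One-direction positions were 87.9% of promoter positions but held 62.7% of promoter regions. Counted by start, 866 of 17254 groups of one-direction starts (5.02%) had a member within 500 bp. The share was 6.58% on the X (190 of 2887, interval 5.70 to 7.55%) and between 4.43 and 5.23% on the 4 large autosome arms. Chromosome 4 had 3 of 144 and the Y chromosome 0 of 111, for which the interval reached 3.27%.

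Of the 768 members, 340 (44.3%, interval 40.7 to 47.9%) were called in the thresholded lists of both replicates, where 40.2% of all 2632 regions were. A further 166 were called in replicate 1 only, 108 in replicate 2 only and 154 in neither. Membership of the lists followed strength, with median pooled signals of 168 for members in both, 74.7 and 78.6 for those in replicate 1 or 2 only and 55.5 for those in neither. The lists and the pooled signal come from the same 2 libraries, so the 2 measures are linked by how they were made. A peak in the longer ranked lists, which hold peaks below the threshold too, was found in both replicates for 721 members (93.9%, against 94.4% of all regions). Over these 721 the signals of the replicates had a Spearman correlation across regions of 0.67. These regions share 2 libraries, so the correlation is a description.

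The replicates leaned in different directions at the 2 kinds of promoter. Among members the signal was higher in replicate 1 at 433 of 721 (60.1%), with a median log2 ratio of replicate 1 over replicate 2 of 0.16. At promoters with starts on both strands it was higher in replicate 1 at 147 of 431 (34.1%), with a median log2 ratio of -0.28. The distal regions resembled the members, with replicate 1 higher at 58.6% of them. Regions called in 1 replicate only showed the same split: 166 members (21.6%) against 52 both-strand regions (11.4%) were called in replicate 1 only. In replicate 2 only, 108 of each were called, which were 14.1% of members and 23.7% of both-strand regions. Over all regions the shares were 18.6% for replicate 1 only and 16.0% for replicate 2 only. The comparison of strength between the kinds of promoter changed accordingly. The median signal of members was 0.952 times that of both-strand regions in the pooled list, 1.08 times in replicate 1 alone and 0.978 times in replicate 2 alone, a difference smaller than its change between replicates. Members were stronger than distal regions in all 3 lists, by 1.15 times pooled, 1.18 times in replicate 1 and 1.25 times in replicate 2.

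**Figure D2:**
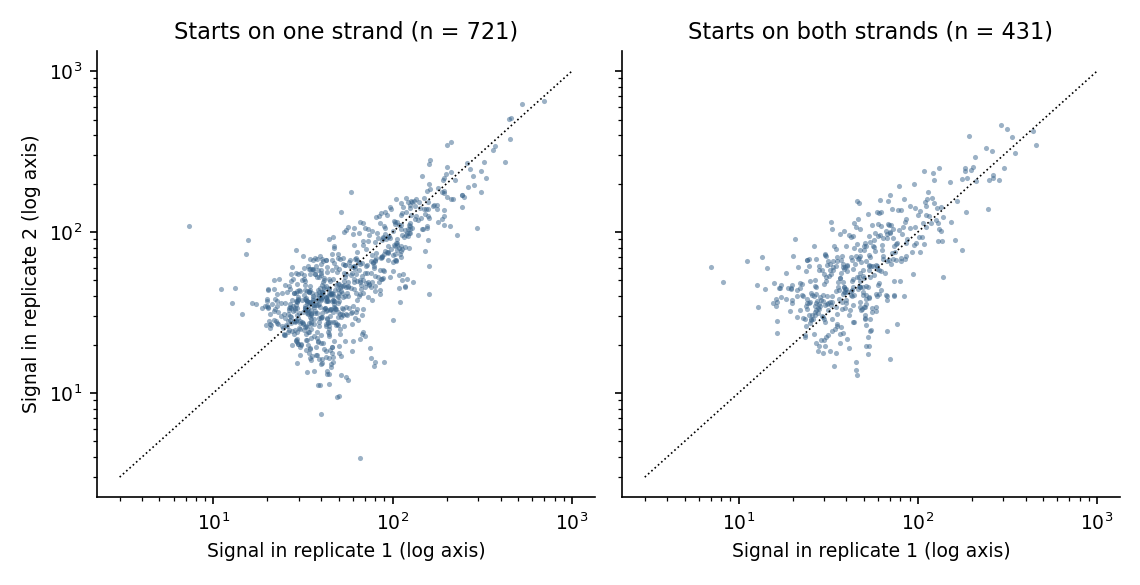
Signal per region in replicate 1 (horizontal, log axis) against replicate 2 (vertical, log axis), with 1 point per region that has a ranked peak in both replicates and the line of equal signal dotted. The 721 members (left) lie more often on the replicate 1 side of the line (60.1%), and the 431 regions with starts on both strands (right) less often (34.1%).

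Some members differed far more between replicates than the rest. Among the 340 in both lists, the largest lean to replicate 1 was at CG7841, with 159 in replicate 1 and 41.1 in replicate 2, a ratio of 3.88. Next came lama, lncRNA:CR31840, CG42394 and the Toll family receptor gene Toll-7, with ratios from 2.60 to 2.99. The largest lean to replicate 2 was at tst, with 58.5 in replicate 1 and 177 in replicate 2, a ratio of 3.02. It was followed by l(3)psg2, the cell death gene hid, Ufsp1 and the translation initiation factor gene eIF3c, with ratios of 1.86 to 2.58. A further 42 members (5.47%) had no ranked peak in replicate 2 and 5 (0.651%) had none in replicate 1, against 4.52 and 1.14% of all regions. These members included strong ones, which were singled out after their values were seen. Gapdh2, a gene of the glycolytic enzyme GAPDH, had 396 pooled and 282 in replicate 1, with no overlapping ranked peak in replicate 2. CG32115 had 234 pooled and 98.2 in replicate 2, with none in replicate 1. Dll, the limb and antenna homeobox gene Distal-less, had 134 pooled and 130 in replicate 1. A missing ranked peak is not a measured zero.

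The DNA under the summits was rich in A and T. The windows around member summits, 50 bp to either side, held 66.6 ± 9.74% A+T (SD, n = 768 regions), against 58.4% in windows 1000 bp upstream and 56.6% in windows 1000 bp downstream. Regions with starts on both strands held 69.4% and distal regions 66.1%. Anchored on starts instead, A+T was higher at the 866 bound starts than at the 16388 starts without a region far from the start and lower near it. From -200 to -175 bp it was 64.6% at bound starts and 61.9% at the others, and from -50 to -25 bp it was 52.5 and 57.6%. Over the whole stretch from -250 to -51 bp these opposite differences gave near-equal means of 60.9 and 60.8%. A+T in the first 100 transcribed bases was 54.6% at bound starts and 56.8% at the others. When starts were ranked by A+T of that whole stretch in 5 equal classes, the bound share was 4.18% in the lowest class, 5.74, 5.22 and 5.42% in the middle ones and 4.55% in the highest, with no trend from low to high.

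**Figure D3:**
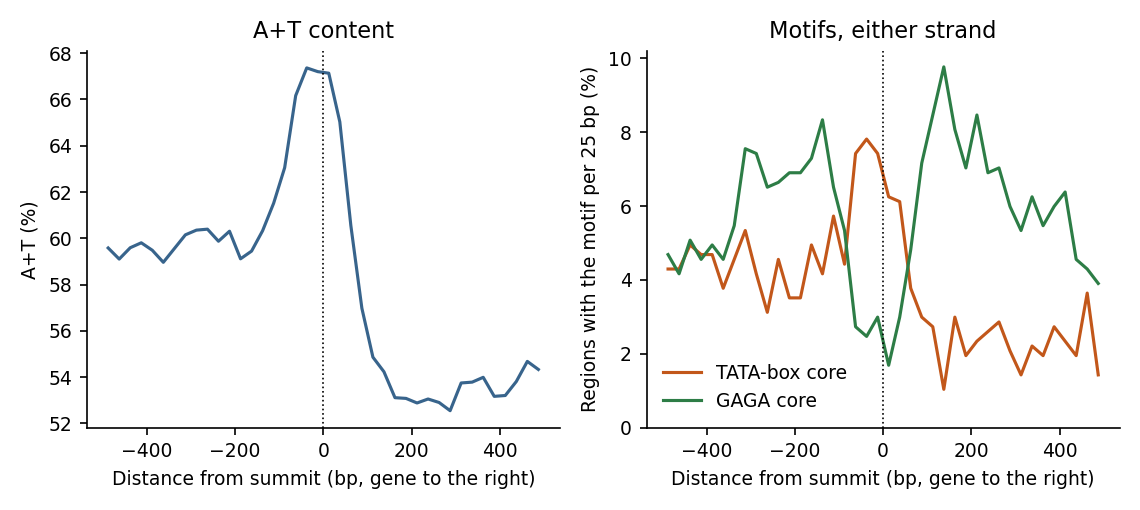
A+T content in percent (left) and the percentage of members with TATAAA or GAGAG per 25 bp, on either strand (right), by distance from the summit in bp, with the gene to the right. A+T and the TATA-box core are highest around the summit of the 768 members, and the GAGA core is lowest there.

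The TATA-box core TATAAA was found in the summit window of 176 members (22.9%, interval 19.99 to 26.1%). In the windows 1000 bp to either side it was found in 12.4% and 11.98%, and in summit windows of both-strand and distal regions in 30.7% and 21.0%. A+T was 66.6% in members' summit windows and 58.4 and 56.6% in those flanks, and the part of base composition in the difference was not tested. From 250 to 50 bp upstream of the start, 31.4% of bound starts and 28.8% of the others held the core, with overlapping intervals. In the summit window the core read on the sense strand in 96 members and on the antisense strand in 107, with 27 holding both. The windows of 107 members lay near enough to the start to hold a core at the place of a TATA box, 45 to 15 bp upstream of the start on the sense strand. Of these 107, 20 held the core somewhere in the window and 2 held it at that place; the other windows with the core lay too far from the start to reach it. Members with the core in the window had a median signal of 103, and those without it 85.0. In the window of CG18549 shown above, the core lies outside the place of a TATA box.

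At the TATA-box place itself, the core was less frequent at bound starts than at other starts. It was present at 40 of 866 bound starts (4.62%, interval 3.32 to 6.24%) and at 1365 of 16388 starts without a region (8.33%, interval 7.91 to 8.76%). For protein-coding genes alone the shares were 4.17% and 9.51%. The members that did carry it included lncRNA:CR31044 (421), the small heat shock protein gene Hsp27 (358), MFS18 (345), CG9498 (202) and CG42394 (183). The initiator core TCAGT within 5 bp of the start was the reverse, with 16.4% (interval 14.0 to 19.0%) of bound starts and 11.7% (11.3 to 12.2%) of the others. The letters TCTTT at the start were found at 2.66% of bound and 1.60% of other starts, and the downstream letters AGACG 20 to 35 bp into the transcript at 2.42 and 1.75%, with overlapping intervals in each case.

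GA repeats were sparse under the summit and more frequent on both sides of it. The core GAGAG, read on either strand, was found in 8.72% of summit windows and in 11.5 and 13.5% of the windows 1000 bp upstream and downstream. Per 25 bp, its share was 1.69% just past the summit, 8.33% from -150 to -125 bp on the far side and 9.77% from 125 to 150 bp on the gene side. From 250 to 50 bp upstream of the start it was found at 342 of 866 bound starts (39.5%, interval 36.2 to 42.8%) and at 4177 of 16388 other starts (25.5%, 24.8 to 26.2%). The share was 42.2% with the list of replicate 1 alone and 40.5% with that of replicate 2 alone. With promoters narrowed to 250 bp, bound starts had it at 26.1% and the others at 24.8%, and the difference was then nearly gone.

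The share of starts with GAGAG also differed with the place of the summit. Where the summit lay more than 250 bp upstream, 149 of 254 bound starts (58.7%, interval 52.3 to 64.8%) held GAGAG in the stretch from 250 to 50 bp. Where it lay farther than 100 and up to 250 bp upstream the share was 33.0%, and where it lay within 100 bp upstream it was 20.8%. Where it lay at the start or downstream, 57 of 161 bound starts (35.4%, interval 28.0 to 43.3%) held it, so the share did not go down steadily with the place of the summit. Closer to the start, from 100 to 50 bp upstream, the shares for these 4 groups were 30.3, 18.6, 7.55 and 14.9%, against 9.90% of starts without a region. Where a summit lay inside a scanned stretch, its window, poor in GAGAG, took up part of that stretch, so the groups do not compare like bases. The part of this overlap in the differences between the groups was not tested. Bound starts also held more GAGAG far upstream, with 7.27% against 2.83% per 25 bp from -500 to -475 bp, beside 13.3% against 6.21% from -100 to -75 bp. Within 313 members whose summit was 100 to 250 bp upstream, the DNA between summit window and start held 6.33 GAGAG per kb, the same length before the window 3.80 and the window itself 1.08. A+T over these stretches was 53.1, 63.8 and 69.1%, and the part of base composition in the spacing of GAGAG was not tested. In msi, a gene of an RNA-binding protein of neural precursors, the 5 matches shown above all lie between the summit at -233 bp and the start.

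**Figure D4:**
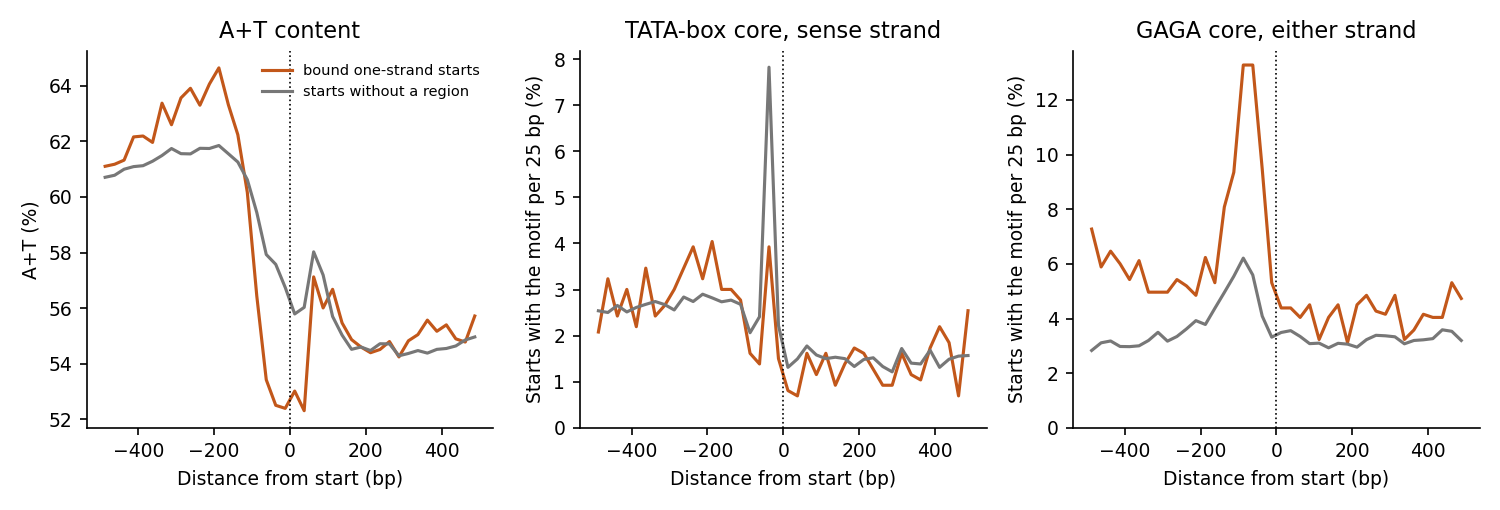
A+T content in percent (left), the percentage of starts with TATAAA on the sense strand per 25 bp (middle) and the percentage with GAGAG on either strand per 25 bp (right), by distance from the start in bp, for 866 bound one-direction starts and 16388 without a region. Bound starts have less TATAAA just upstream of the start and more GAGAG at every step of the upstream side, with the highest share from -100 to -50 bp (13.3% per 25 bp).

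The DRE core TATCGATA was found in 8 summit windows (1.04%, interval 0.451 to 2.04%), against 3.73% of both-strand regions and 0.071% of distal ones. The 3 strongest were Alg3, an enzyme of protein glycosylation (195), CG1827 (173) and eEF1gamma (142, with 78.7 and 61.4 in replicates 1 and 2). The ribosomal protein genes RpS7, RpS15Aa and mRpL4 were also among the 8. The motif GGTCACACT, bound by the factor M1BP, was found in 1 window, at RpL27 (53.9). No match for a motif says only that these letters are not in the window.

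The bound share of the protein-coding gene lists ran from 0 to 27.8%. Of 10474 protein-coding genes with such a start, 672 were bound (6.42%). Cytosolic ribosomal protein genes, whose products build the ribosome, were bound at 15 of 54 (27.8%, interval 16.5 to 41.6%). The share was 14.8% with the list of replicate 1 alone, where 4.44% of all protein-coding genes were bound, and 9.26% with that of replicate 2 alone, where 3.84% were. The bound ones were weak: RpL23A had 103 pooled (61.1 and 48.9 in replicates 1 and 2), RpL17 97.2 and RpS7 94.0, and the median over the 15 was 72.7 against 88.7 over all members. Of the 15, 3 were in both replicates' lists, where 44.3% of all members were, and 5 were in neither, where 20.1% of all members were. The summits of the ribosomal protein genes sat close to the start, 12 of the 15 within 100 bp, where 143 of the 768 members (18.6%) were. Their median distance was -38 bp against -161 bp.

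The lists of other translation, energy and stress genes held few bound genes each. Over all protein-coding genes the bound share was 6.42%. Mitochondrial ribosomal proteins were bound at 2 of 20, mRpL41 and mRpL4 (56.4), and oxidative phosphorylation genes at 1 of 52, ND-B17 (50.7). With the list of either replicate alone these shares went from 10% to 5% and from 1.92% to 0. The share over all protein-coding genes also went down, to 4.44% with replicate 1 alone and 3.84% with replicate 2 alone. Translation factors were bound at 4 of 36 (11.1%), with eIF3c at 155, eEF1gamma at 142 and eIF5B at 92.3. The vacuolar ATPase genes, which encode a proton pump, were bound at 3 of 23 (13.0%), with Vha13 the strongest (82.5). None was bound with the list of either replicate alone. Heat shock genes were bound at 4 of 22 (18.2%), all on 1 chromosome arm. Hsp27 had 160 in replicate 1 and 198 in replicate 2, Hsp22 107 pooled, and Hsp83, an Hsp90 chaperone, 96.1. The Hsp22 summit lay at -488 bp, within another gene, CG4456. Where a list has few genes its interval is wide, for heat shock genes from 5.19 to 40.3%. The interval of each of these lists holds the 6.42% of all protein-coding genes.

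Developmental regulators were bound at 8 of 74 (10.8%, interval 4.78 to 20.2%), a range that holds the 6.42% of all genes. Sox14, an HMG-box transcription factor gene induced by ecdysone, led with 551 pooled, 202 in replicate 1 and 348 in replicate 2. msi had 428, with 222 and 210, and elav, the gene of a neuronal RNA-binding protein, had 361, with 193 and 174. The elav summit lay in an intron of the neighbouring gene arg. tin, the heart and mesoderm homeobox gene tinman, had 174. As a group these had a median signal of 154 and a median summit distance of -214 bp against 88.7 and -161 bp over all members.

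Several families had no bound one-direction start. No member of the chemoreceptors was bound (0 of 163, interval up to 2.24%) and none of the cuticle proteins (0 of 67, up to 5.36%). Of all protein-coding genes, 6.42% were. The proteasome (0 of 26), histones (0 of 24), cyclins and their kinases (0 of 15), tRNA synthetases (0 of 14), Mediator (0 of 11), nuclear pore (0 of 8) and splicing (0 of 5) lists were also at 0, with intervals reaching 13.2% or more. Those intervals hold 6.42%, so these short lists are not set apart from all protein-coding genes. Cytochrome P450 genes were bound at 2 of 79, Cyp6u1, which shares its region with Ufsp1, and Cyp317a1 (83.7). Rab GTPase genes were bound at 1 of 21 (Rab5, 78.4) and Enhancer of split genes at 1 of 11, E(spl)m2-BFM (68.3, with the summit at -496 bp). The intervals of these lists, cytochrome P450 genes included, also hold 6.42%. Genes of snoRNAs were bound at 6 of 262 and those of tRNAs at 3 of 198, none with a signal over 86.0. Counted by start group, 5.02% of the one-direction starts of any gene were bound. For most of the snoRNA genes the start nearest to the summit belonged to another gene. It was that of Uhg4 for snoRNA:Or-aca5 and snoRNA:Psi28S-2949, which shared a region, RpS29 for snoRNA:Psi18S-1275 and CG43051 for snoRNA:CG43051-a. The summits of snoRNA:Or-ACA6 (-458 bp) and snoRNA:abba-a (-486 bp) lay in introns, within egr and tn. With replicate 2 alone the P450 share went from 2.53 to 1.27%, and the Enhancer of split and snoRNA shares went to 0. With replicate 1 alone the snoRNA share was 1.15%, and the tRNA share was 0.505% with either replicate, against 2.29 and 1.52% pooled. Over all protein-coding genes the share was 6.42% pooled, 4.44% with replicate 1 alone and 3.84% with replicate 2 alone. Over start groups of any gene it was 5.02, 3.45 and 2.93%.

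**Figure D5:**
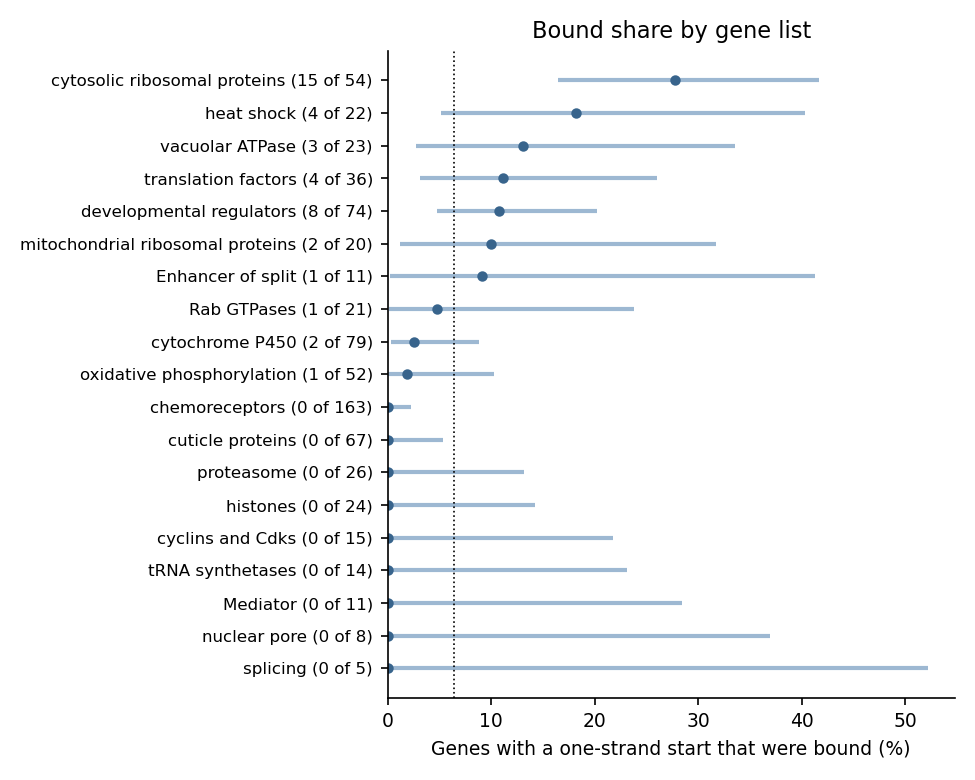
The percentage of genes with a one-direction start that were bound, per protein-coding gene list, with exact 95% intervals as bars and the 6.42% of all protein-coding genes dotted. The snoRNA and tRNA lists are not drawn. The interval of the cytosolic ribosomal protein genes (16.5 to 41.6%) lies above the line. Those of the chemoreceptors (up to 2.24%) and the cuticle proteins (up to 5.36%) lie below it.

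The danr gene itself had a member of low rank. Its signal was 50.5 pooled, 34.8 in replicate 1 and 16.1 in replicate 2, which put it at rank 732 of the 768, and neither replicate alone called it. The summit lay in the 5′ UTR at 30 bp, in a window with 39.6% A+T. The fusion transgene carries danr sequence, and its part in this region was not tested.

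The rule has a distance threshold, and the regions nearest to it varied in strength. Just inside lay a second region of lncRNA:CR44619 at 500 bp (429), lncRNA:CR45243 at 499 bp (75.4) and CG13954 at 498 bp (63.0). Just outside lay regions near CG5854 at 502 bp (67.2), mtgo at 505 bp (42.4) and Sur-8 at 505 bp (77.8). Opposite starts just beyond reach kept beta4GalNAcTB at 502 bp (56.7) and Fatp1 at 505 bp (56.7) among the members, and ones just inside put CG31751 (119) and Naam (63.8), both at 500 bp, among the both-strand regions. For 113 members (14.7%) an opposite start lay between 500 and 1000 bp from the summit.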

How the data were processed

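Chromatin was sheared by sonication to 200 to 800 bp, per the labels. The deposited lists hold peaks on dm6 that the authors made from filtered alignments, ranked by irreproducible discovery rate and thresholded, per the file descriptions; no aligner, peak caller or signal scaling is stated there. The deposited signal is an enrichment value per peak, and the deposited score, a transform of the irreproducible discovery rate, was at least 830 in every thresholded list. The 2799 peaks pooled over both replicates merged into 2653 regions, 2632 of them on the 7 chromosomes, each with the summit of its peak of highest signal. Each replicate's own lists and the conservative list were treated alike.

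Starts came from Ensembl release 115 (BDGP6.54, transposable elements left out), and sequence from the RefSeq assembly of the same build, in which no peak passed a chromosome end. Starts on the same strand within 50 bp of the next were joined into 1 group, placed at the position of most transcripts, and a start group was bound if a member summit lay within 500 bp. Motifs were matched as fixed letters, 13 of them around summits, 50 bp to either side. The 22 gene lists were made by symbol or gene type. The result of 1 list is not reported here. Named genes were the nearest to the 10 strongest members, danr, up to 3 per list, those with each motif, the extremes of the replicate ratio and those at the limits of the rule; other named genes were chosen after their values were seen. The members and lists were chosen with earlier results of these data known. Shares carry exact Clopper-Pearson intervals at 95%, which treat each region or start as an independent draw; values were repeated in each replicate, with no test over samples since there is 1 group. Scripts were tested on simulated data, using Python 3.11.15, numpy 2.4.6, scipy 1.17.1 and matplotlib 3.10.9.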

Additional observations from a re-analysis of the deposited data

How the results depend on the processing

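Regions were recounted with each replicate alone, the conservative list, regions above the median signal, promoters of 250 and 1000 bp, protein-coding starts and windows of 25 and 100 bp. No paired analysis was possible because there is 1 group. With each replicate alone (leaving out the other), the count of members ranged from 450 to 531, their share of regions from 28.96 to 32.4%, the share upstream from 82.5 to 85.1%, the median distance from -177 to -176 bp, the signal ratio to both-strand regions from 0.978 to 1.08 and to distal regions from 1.18 to 1.25, A+T was 67.8% in each, TATAAA in the window ranged from 22.4 to 24.4%, at the TATA-box place from 4.67 to 4.71%, and the bound share of starts from 2.93 to 3.45%. The conservative list gave -168 bp, 67.3% A+T, 4.21% with TATAAA at the TATA-box place and 4.04% of starts bound. Regions above the median signal gave 418 members, 31.8% of regions, 84.2% upstream, -173 bp, ratios of 1.09 (the direction turned) and 1.22, 68.8% A+T, 27.3 and 4.55% with TATAAA, 2.73% of starts bound and 77.5% of members in both lists. Promoters of 250 bp gave 23.8% of regions, 84.0% upstream, -122 bp, ratios of 0.828 and 1.07, 66.2% A+T, 3.67% with TATAAA at the TATA-box place and 3.46% of starts bound. Promoters of 1000 bp gave 35.03% of regions, 73.1% upstream, -173 bp, 66.6% A+T, 3.905% and 7.23%. Protein-coding starts gave -164.5 bp, 66.6% A+T, 4.23% and 5.78%. Windows of 25 and 100 bp gave 67.1 and 64.1% A+T and 11.98 and 36.5% with TATAAA. The ratio to both-strand regions also turned in replicate 1 alone (1.08), and the cause of neither turn was tested. Of the other 182 values, 113 moved by more than the spread between replicates and 69 did not. That spread rests on 2 replicates. It was 0 where both replicates gave the same share, such as 5% for mitochondrial ribosomal proteins. Any change there counted as moved, and lists at 0 in every setting counted as not moved. The alternatives for GAGAG, TATA core and initiator at starts were chosen after seeing the data.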

Other observations

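In summit windows of the members, the A tract AAAAAAA was found in 14.97%, TTATTA in 20.3% and TGTTTA, the letters of a forkhead core, in 14.97%. The shares were 7.16, 11.2 and 9.11% in windows 1000 bp upstream and 8.07, 9.51 and 10.4% in windows 1000 bp downstream. In summit windows of both-strand regions they were 14.9, 30.0 and 14.9%, and in those of distal regions 13.8, 17.8 and 13.0%. A+T was 66.6% in the members' summit windows and 58.4 and 56.6% in those flanks. The part of base composition in these differences was not tested. The homeodomain letters TAATTA were found in 8.85% of members' summit windows, against 7.29% upstream and 4.04% downstream. Both-strand and distal regions had them in 14.3 and 8.31%. The Sox letters ACAAT were found in 29.6% of members' summit windows, against 27.9 and 23.4% in the flanks. For the Zelda letters CAGGTA the share was 1.82%, against 2.47 and 2.08%. Both-strand and distal regions held ACAAT in 33.8 and 30.7% and CAGGTA in 2.63% each.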
